A study of Zea mays with 12 samples.

Results

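Kernels of the maize small-kernel mutant *smk7a* collected 20 days after pollination (DAP) were compared with *smk7a* kernels collected 12 DAP. The comparison took the samples that the labels give as *smk7a* at these 2 stages, which are 6 of the 12 samples of the study, and read every gene listed in the expression table analysed here, 720 in all. The study sequenced RNA of whole maize kernels from 4 groups with 3 biological replicates each. These were *smk7a* at 20 DAP, *smk7a* at 12 DAP, wild type (WT) at 20 DAP and WT at 12 DAP. The *smk7a* mutation is recessive and came from a library treated with the chemical mutagen EMS in the inbred line B73. Because plants do not develop normally from mutant seed, *smk7a* kernels exist only as one class of kernels on M8 ears of selfed heterozygotes, and the WT kernels were their ear mates. Such ear mates can be heterozygous for the recessive mutation, and the genotype of the WT kernels is not stated. The *smk7a* kernels of both stages share the mutation and all 4 groups share the B73 background. Neither the ears behind each stage and replicate nor the number of kernels is stated, so p-values measure the spread between these samples.

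A maize kernel holds a small embryo and a large endosperm that fills with starch and storage protein. In the early phase endosperm cells divide and differentiate, and the basal endosperm transfer layer forms the surface through which sugars and amino acids enter from the mother plant. In the later filling phase the endosperm makes starch and zeins, while the embryo lays down oil and its own protective proteins. Starch synthases, sugar transporters and cell wall invertases are among the proteins on which filling depends, and auxin and cytokinin are hormones of the phase of growth.

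Expression was given as FPKM (fragments counted for a gene, divided by its transcript length and by the mapped fragments of the sample), so that levels can be set side by side between genes. Of the 720 listed genes, 173 were at 0 in all 6 *smk7a* samples, 183 were above 0 but did not exceed 1 FPKM in at least 3 of them, and the other 364 were tested with limma on log2(FPKM + 0.1). The 720 genes summed to 4175 to 4525 FPKM in *smk7a* at 20 DAP, 5800 to 5853 FPKM in *smk7a* at 12 DAP, 2864 to 3257 FPKM in WT at 20 DAP and 4261 to 4828 FPKM in WT at 12 DAP. The read depth behind the FPKM is not in the table, and the read numbers that the study reports were not used here. Among the 12 DAP *smk7a* samples replicate 2 stood apart. Its median absolute log2 difference over the tested genes was 0.29 from replicate 1 and 0.29 from replicate 3, against 0.17 between replicates 1 and 3, and the 3 replicates at 20 DAP differed by 0.12 to 0.19. Replicate 2 at 12 DAP also was the lone sample in 10 genes, that is over 1 log2 unit away while the others lay within 0.5, against 4 and 3 genes for the other replicates of that stage. Results that rest on it are given with and without it.

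The label of kernel tissue was checked with markers. Among listed descriptions, 1 transfer layer marker (basal endosperm transfer layer4, BETL4) and 2 endosperm markers (dull endosperm1 and endosperm specific protein1) were present in all *smk7a* samples. BETL4 ranged over 54.7 to 156 FPKM at 20 DAP and 67.5 to 90.0 FPKM at 12 DAP, and the endosperm pair summed to 128.5 to 169.4 FPKM at 20 DAP and 127.7 to 168.6 FPKM at 12 DAP. Of 7 listed late embryogenesis abundant or other embryo genes, 6 were at 0 in every *smk7a* sample. The list held 0 zeins and 0 aleurone markers, so zein storage protein and the aleurone had no marker in this copy of the table.

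Most tested genes had lower FPKM at 20 DAP than at 12 DAP. The median log2 fold change was −0.44, and 280 of 364 genes (76.9%) had a fold change below 0. A gene was called when its change exceeded 2-fold and its adjusted p was below 0.05, which held for 70 genes (19.2% of those tested), while 192 (52.7%) passed on the adjusted p alone. Of these 59 were lower at 20 DAP (16.2%) and 11 were higher (3.02%). All 3 values of a stage lay beyond all 3 of the other stage in 58 of the 59 lower and in 11 of the 11 higher genes, against 62.9% of all tested genes, 54.1% lower and 8.79% higher. Of the lower calls, 10 entered the test only through the 12 DAP samples, with no 20 DAP value above 1 FPKM, and of the higher calls 1 entered only through the 20 DAP samples. Such genes had to differ to be tested, and without them 49 lower and 10 higher calls stand. An exact two-sided permutation test of 3 against 3 samples cannot go below p = 0.1, so single genes rest on limma. When the samples were rescaled by the median of ratios over the tested genes, the median change became −0.01, and 43 genes were called (11.8%), 25 lower (6.87%) and 18 higher (4.95%). The 11 higher genes were all among them, as were 25 of the 59 lower ones. Rescaling thus raised the log2 fold changes by about 0.44, with a smaller step for genes near the pseudocount, and it moved the balance of lower and higher calls. Which scaling suits the kernels was not tested. In whole kernels, fewer cells of a type and less RNA per cell cannot be told apart.

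**Figure D1:**
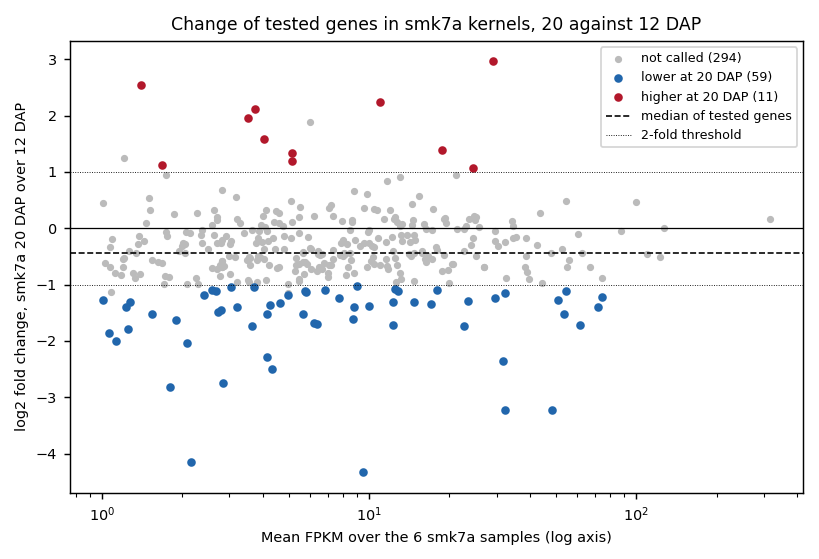
Log2 fold change of each of the 364 tested genes in *smk7a* kernels (20 over 12 DAP, vertical axis) against its mean FPKM over the 6 samples (log axis). The 59 genes called lower and 11 called higher are coloured, dotted lines mark 2-fold and the dashed line the median, −0.44, which lies below 0.

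The genes called lower had log2 fold changes of −1.02 to −4.33, with a median of −1.39, and their mean FPKM over the 6 samples ran from 1.01 to 74.7. The median of their group means was 2.94 FPKM at 20 DAP and 8.38 FPKM at 12 DAP. The 11 higher genes had medians of 7.18 FPKM at 20 DAP and 2.91 FPKM at 12 DAP. Of the 11, 4 had no description, and in 6 of them replicate 2 held the highest 12 DAP value. Leaving out replicate 2 of 12 DAP left 54 calls, 43 lower and 11 higher, and 41 and 10 of these were among the original calls. Of the 18 lower genes lost, 10 were lost because they no longer passed the filter on low values. These 10 passed only with all 3 samples of 12 DAP, so they drop out whichever of those samples is left out. Without replicate 2 of 20 DAP 7 genes were called higher.

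The largest falls included genes described as enzymes of phenolic and lipid oxidation. Zm00001d001960, described as a naringenin 2-oxoglutarate 3-dioxygenase, an enzyme of the flavonoid pathway, had 0.270, 1.62 and 1.04 FPKM in the 20 DAP replicates, against 16.6, 21.2 and 16.4 FPKM at 12 DAP. Every 20 DAP value was under every 12 DAP value, and the fall was −4.33 ± 0.52 log2 units (limma SE, adjusted p = 0.000855), a 20.1-fold lower level on the log2(FPKM + 0.1) scale. The level in WT kernels was 0.079, 0.0765 and 0.0791 FPKM at 20 DAP and 3.16, 4.403 and 0.570 FPKM at 12 DAP, and the gene was not tested there because it failed the filter. A difference between the changes of the 2 genotypes was not called (−0.74 ± 0.90, interaction adjusted p = 0.597).

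Polyphenol oxidase1 (Zm00001d000001), whose enzyme family oxidises phenols to the quinones that brown damaged tissue, had 9.03, 8.84 and 9.46 FPKM at 20 DAP, against 115, 69.5 and 78.8 FPKM at 12 DAP. The stages did not overlap, and the fall was 9.31-fold (log2 fold change −3.22 ± 0.19, adjusted p = 6.64e-05). WT kernels held 4.85, 4.07 and 4.62 FPKM at 20 DAP and 9.74, 4.12 and 5.07 FPKM at 12 DAP, a log2 change of −0.38 (adjusted p = 0.23). The difference between the changes of the genotypes was −2.84 ± 0.38 (adjusted p = 0.000323). The 12 DAP *smk7a* kernels were thus the high samples, and at 20 DAP the *smk7a* level stood above the WT level in each sample.

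Zm00001d001771 encodes a eukaryotic aspartyl protease family protein, an enzyme that cuts proteins. It had 5.24, 6.82 and 6.37 FPKM at 20 DAP in *smk7a*, against 65.6, 65.4 and 44.9 FPKM at 12 DAP. The log2 fold change was −3.22 ± 0.18 (adjusted p = 6.64e-05), and the stages did not overlap. In WT it had 12.5, 10.6 and 13.1 FPKM at 20 DAP and 12.3, 13.7 and 5.26 FPKM at 12 DAP, where the values of the stages overlapped. The 2 genotypes' changes differed by −3.54 ± 0.42 (adjusted p = 0.000171), a difference also found with the rescaled values (−3.62).

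Lipoxygenase6 (Zm00001d002000) is named for a family of enzymes that add oxygen to polyunsaturated fatty acids, and whether this member does so was not tested. Its values were 9.90, 10.3 and 10.5 FPKM at 20 DAP, against 51.8, 51.6 and 55.9 FPKM at 12 DAP, with little spread inside a stage. The log2 fold change was −2.36 ± 0.09 (adjusted p = 1.34e-05). It also fell in WT, to 4.65, 3.34 and 3.79 FPKM at 20 DAP, against 12.4, 11.7 and 13.7 FPKM at 12 DAP, and the difference between genotypes of −0.70 was under the 2-fold threshold (adjusted p = 0.0199).

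Zm00001d000117, a glucan endo-beta-glucosidase, belongs to a family that cuts callose-type glucans. It had 0.149, 0.047 and 0.096 FPKM at 20 DAP, against 3.52, 7.88 and 1.27 FPKM at 12 DAP, a log2 fold change of −4.14. The 12 DAP values spread widely and all lay above those of 20 DAP, but the gene passed the filter only through the 12 DAP samples, so this is a description.

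2 of the largest falls were hormone response genes. Cytokinin response regulator1 (Zm00001d001865), one of the regulators that cytokinin induces, had 0.983, 1.46 and 1.18 FPKM at 20 DAP, against 6.21, 10.4 and 5.73 FPKM at 12 DAP (log2 fold change −2.49 ± 0.26, adjusted p = 0.000586). Zm00001d001964, of the SAUR family of small auxin-responsive proteins, had 0.166, 1.23 and 0.159 FPKM at 20 DAP, against 3.08, 2.96 and 3.21 FPKM at 12 DAP (log2 fold change −2.82 ± 0.62, adjusted p = 0.00895). Replicate 2 was the high sample at 20 DAP for the SAUR gene and the only one of that stage above 1 FPKM. The entry of this gene into the test thus rested mostly on the 12 DAP samples, where it is high. Both genes were also called lower in WT, at −2.91 and −4.00, where entry through the 12 DAP samples alone was not checked. Reads of near-identical copies may have been split between genes in families such as SAUR, so its level is uncertain.

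The remaining members of the 10 largest falls were Zm00001d002139, a transferase, at −2.75, Zm00001d000242, an expressed protein, at −2.28, and Zm00001d001763, a probable methyltransferase, at −2.03. Zm00001d002139 had 0.547 to 0.844 FPKM at 20 DAP and 4.59 to 5.25 FPKM at 12 DAP. It and Zm00001d001763 passed the filter only through the 12 DAP samples, where they are high, so their falls too are descriptions. The other 7 of the 10, leaving out these and Zm00001d000117, stayed called after rescaling.

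**Figure D2:**
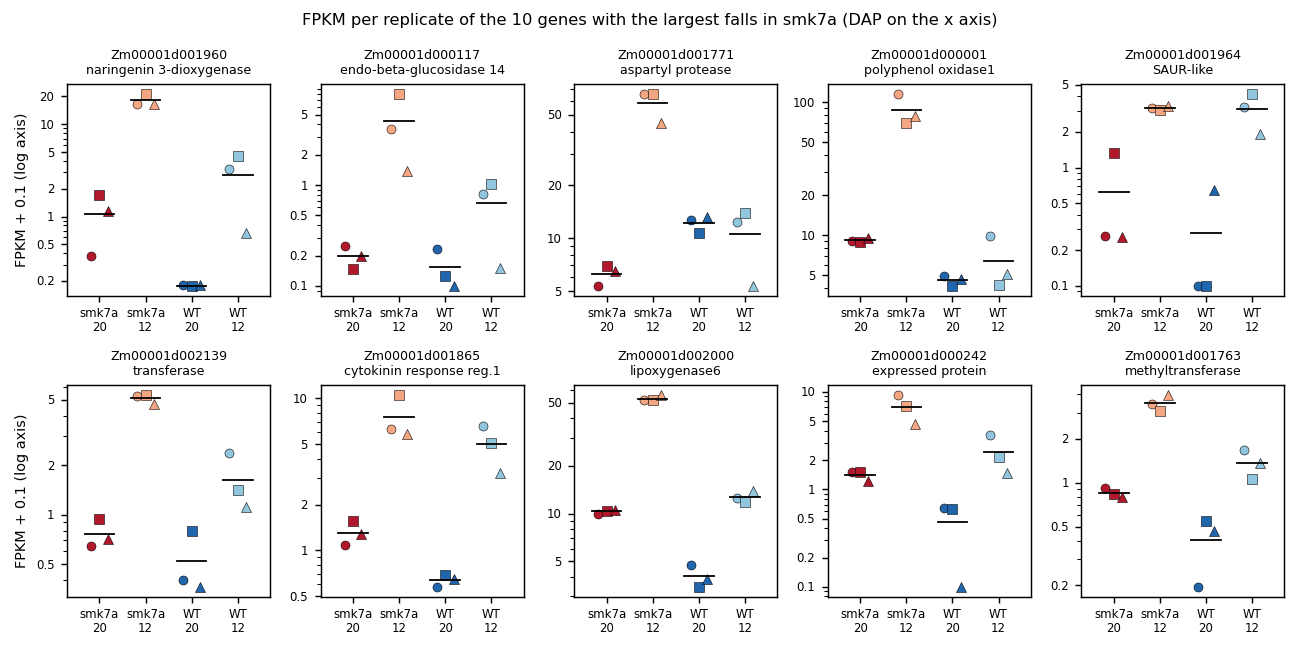
FPKM + 0.1 (log axis) of each replicate for the 10 largest falls, with *smk7a* 20 and 12 DAP left of WT 20 and 12 DAP, circles, squares and triangles for replicates 1, 2 and 3, and bars for arithmetic means. The genes were picked for *smk7a* stages that do not overlap, so the gap between those points follows from the choice. In WT, which was not used to pick them, polyphenol oxidase1 and the aspartyl protease overlap between the stages.

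The genes that rose differed in function, and their number varied with the samples used. Leaving out 1 of the 20 DAP samples gave 9, 7 or 8 higher calls, and leaving out 1 of the 12 DAP samples 11, 11 or 10. The largest rise was that of Zm00001d000128, which has no description, with 40.5, 49.8 and 49.7 FPKM at 20 DAP, against 2.153, 29.1 and 3.13 FPKM at 12 DAP. Replicate 2 of 12 DAP was far above the other 12 DAP samples, and the log2 fold change was 2.96 ± 0.88 (adjusted p = 0.0274). Without that replicate it was 4.11 (adjusted p = 7.46e-05), while leaving out any other single sample lost the call (adjusted p up to 0.0739). In WT all 6 values were between 33.5 and 63.7 FPKM, so replicates 1 and 3 of *smk7a* at 12 DAP were the low samples of the series. The interaction was 2.87 (adjusted p = 0.0521) and missed the threshold.

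Cis-zeatin O-glucosyltransferase1 (Zm00001d000237) links glucose to the cytokinin cis-zeatin, which gives a storage form of the hormone. It had 6.26, 5.99 and 4.5 FPKM at 20 DAP in *smk7a*, against 0.814, 2.004 and 1.497 FPKM at 12 DAP, a 3.87-fold rise (log2 fold change 1.95 ± 0.31, adjusted p = 0.00262). WT went the other way, with 1.46, 0.562 and 0.456 FPKM at 20 DAP and 3.35, 3.30 and 1.84 FPKM at 12 DAP (−1.77, adjusted p = 0.00342). The changes differed by 3.72 ± 0.56 (adjusted p = 0.000718), and the values of the stages did not overlap in either genotype.

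The calmodulin-like protein CML21 (Zm00001d000256), of a family that binds calcium, had 7.68, 6.997 and 7.41 FPKM at 20 DAP, against 2.24, 3.81 and 2.67 FPKM at 12 DAP (log2 fold change 1.34 ± 0.20, adjusted p = 0.00177). In WT it had 9.91, 9.63 and 8.68 FPKM at 20 DAP and 22.8, 21.9 and 18.04 FPKM at 12 DAP (−1.14, adjusted p = 0.000307). At 12 DAP every WT sample was above every *smk7a* sample of either stage. The interaction was 2.48 ± 0.24 (adjusted p = 9.02e-05).

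Zm00001d002132 was the third rise with an opposite call in WT. It has no description, and its values were 4.09, 7.98 and 5.79 FPKM at 20 DAP, against 0.833, 3.05 and 0.729 FPKM at 12 DAP (log2 fold change 2.12 ± 0.52, adjusted p = 0.0142). WT had 8.27, 9.997 and 13.5 FPKM at 20 DAP and 40.1, 39.3 and 15.8 FPKM at 12 DAP.

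The transcription factor MYB104 (Zm00001d000361) had 7.87, 7.02 and 6.64 FPKM at 20 DAP, against 2.75, 2.93 and 3.58 FPKM at 12 DAP (log2 fold change 1.20 ± 0.14, adjusted p = 0.000855). Its WT values lay between 2.52 and 3.43 FPKM at both stages, which makes the 20 DAP *smk7a* kernels the only samples above 4 FPKM. The interaction was 1.41 ± 0.20 (adjusted p = 0.000409). A sulfur-assimilating enzyme of the methionine route, O-succinylhomoserine sulfhydrylase (Zm00001d000294), had 27.5, 27.1 and 24.2 FPKM at 20 DAP, against 6.396, 18.8 and 8.30 FPKM at 12 DAP. Its log2 fold change was 1.38 ± 0.37 (adjusted p = 0.0179), and 1.83 without replicate 2 of 12 DAP. The call was lost without replicate 3 of 12 DAP or without replicate 1 or 2 of 20 DAP (adjusted p up to 0.0538).

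The other rises among the 10 largest were Zm00001d002072 at 2.54, Zm00001d001996 at 2.24, the hydroxyproline-rich glycoprotein Zm00001d001894 at 1.58 and CNX1 (Zm00001d001970), an enzyme of the molybdenum cofactor, at 1.12. Zm00001d002072 was listed at 0 in 1 of the 12 DAP samples and at 2.02 to 2.85 FPKM at 20 DAP, and it passed the filter only through the 20 DAP samples. CNX1 lost its call without replicate 1 or 2 of 12 DAP or replicate 2 or 3 of 20 DAP (adjusted p up to 0.106), and Zm00001d001894 without replicate 3 of 20 DAP (adjusted p = 0.0508). Zm00001d001996 also rose in WT (1.33, adjusted p = 0.0158).

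**Figure D3:**
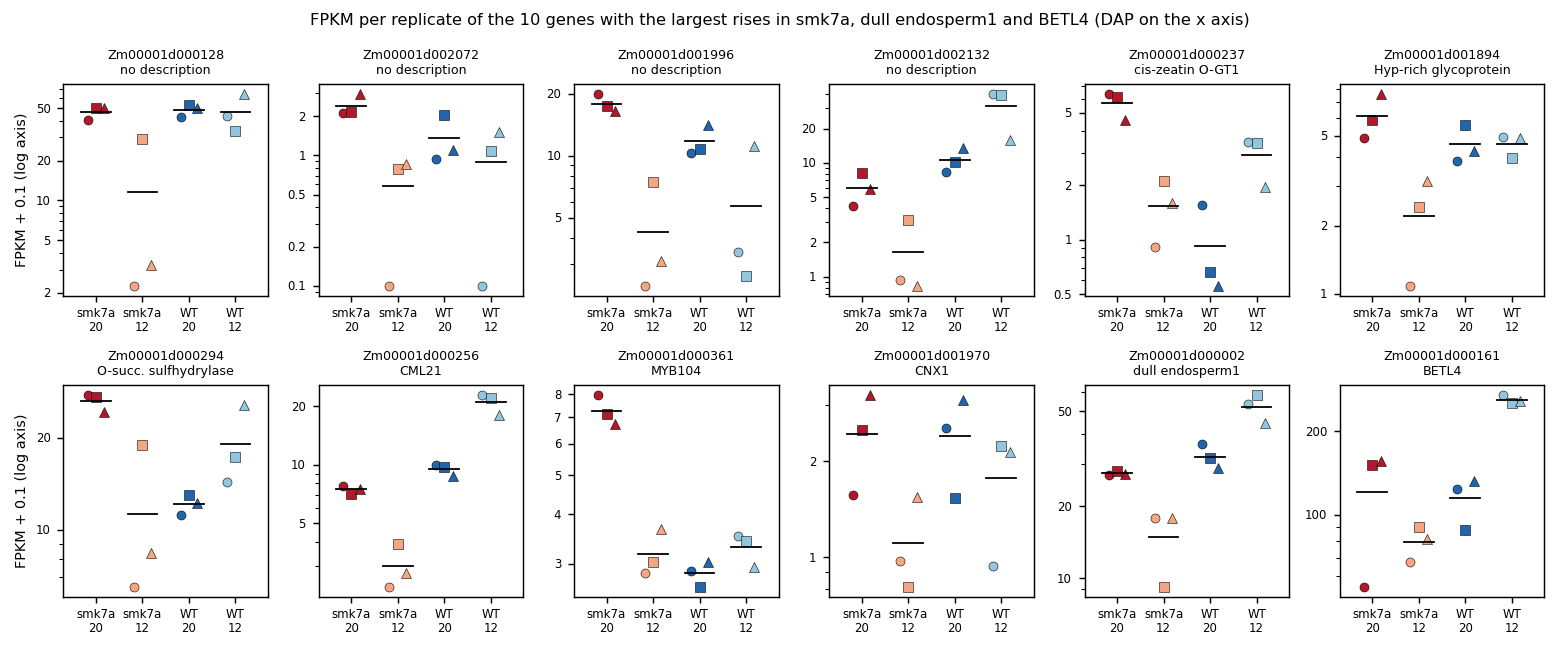
FPKM + 0.1 (log axis) of each replicate for the 10 largest rises in *smk7a*, dull endosperm1 and BETL4, with *smk7a* 20 and 12 DAP left of WT 20 and 12 DAP, circles, squares and triangles for replicates 1, 2 and 3, and bars for arithmetic means. Cis-zeatin O-glucosyltransferase1 and CML21 run in opposite directions in the genotypes, and the square of *smk7a* at 12 DAP is the highest of its stage in Zm00001d000128.

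Genes of the endosperm showed no call in *smk7a*. Dull endosperm1 (Zm00001d000002), a starch synthase, had 26.8, 28.1 and 27.2 FPKM at 20 DAP, against 17.7, 9.07 and 17.7 FPKM at 12 DAP. The stages did not overlap and the adjusted p was 0.0199, but the log2 fold change of 0.94 ± 0.26 was under the threshold. With the rescaled values it was 1.39 and called, and without replicate 2 of 12 DAP, the lowest sample, it was 0.63. In WT dull endosperm1 had 36.3, 31.7 and 28.7 FPKM at 20 DAP and 53.8, 58.5 and 44.5 FPKM at 12 DAP, and the changes of the 2 genotypes differed by 1.64 ± 0.31 (adjusted p = 0.00336).

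BETL4 (Zm00001d000161), a small protein of the transfer layer, had 54.7, 152 and 156 FPKM at 20 DAP, against 67.5, 90.0 and 81.8 FPKM at 12 DAP. Replicate 1 of 20 DAP was below every 12 DAP sample and the others were above every one, so the stages overlapped (log2 fold change 0.46 ± 0.40, adjusted p = 0.357). Without replicate 1 of 20 DAP the log2 fold change was 0.96 (adjusted p = 0.00551). In WT BETL4 fell to 124, 88.0 and 132 FPKM at 20 DAP, against 271, 252 and 258 FPKM at 12 DAP, and the interaction was 1.66 ± 0.45 (adjusted p = 0.0226).

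Endosperm specific protein1 (Zm00001d000418) had 102, 141 and 139 FPKM at 20 DAP, against 110, 160 and 115 FPKM at 12 DAP, with overlapping stages and a log2 fold change of −0.00 ± 0.19 (adjusted p = 0.984). After rescaling its value was 0.44, and without replicate 2 of 12 DAP 0.16, so it has no settled sign. The sugar transporter SWEET1a (Zm00001d000222) had 22.4, 30.3 and 28.7 FPKM at 20 DAP, against 25.6, 40.7 and 29.7 FPKM at 12 DAP (−0.22, adjusted p = 0.373), and it turned to 0.22 after rescaling. Its WT levels were lower, at 5.15 to 7.61 FPKM at 20 DAP and 9.004 to 12.8 FPKM at 12 DAP. Cell wall invertase4 (Zm00001d001941), of the enzymes that split sucrose outside the cell, was at 0.256 to 0.545 FPKM at 20 DAP and 0.361 to 1.06 FPKM at 12 DAP and was not tested.

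3 tested genes lie in the interval on chromosome 2 to which the mutation was mapped. Zm00001d001824, a Dof zinc finger protein (DOF1.6) of a family of transcription factors, had 57.6, 55.2 and 44.6 FPKM at 20 DAP, against 94.5, 85.1 and 110 FPKM at 12 DAP. Its log2 fold change of −0.88 had an adjusted p of 0.00294, under the fold threshold, and became −0.44 (adjusted p = 0.0751) after rescaling. Zm00001d001825, a WD40 repeat protein, had 3.83 to 4.64 FPKM at 20 DAP and 5.79 to 7.58 FPKM at 12 DAP (−0.64, adjusted p = 0.00928). Zm00001d001819, a de-N-acetylase of the GPI anchor route, had 1.31, 1.66 and 2.052 FPKM at 20 DAP, against 2.06, 2.20 and 2.35 FPKM at 12 DAP (−0.40, adjusted p = 0.14), and stood at 0.02 after rescaling. No interaction of the 3 was called (adjusted p = 0.224, 0.56 and 0.842).

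Annotation lists were matched to descriptions, GO terms and pathways, and a gene can belong to several. 18 of the 22 lists held at least 1 called gene, and counts are read against the 19.2% called over all tested genes. Cell division genes were called at about the background share. In the cell cycle, DNA replication and chromosome list 4 of 21 tested genes were lower and 0 higher, with a median of −0.37 against −0.44 for all genes. Divergent spindle1 (Zm00001d002186), a kinesin that shapes the spindle in maize, had 3.23, 2.83 and 2.66 FPKM at 20 DAP, against 10.5, 8.31 and 9.72 FPKM at 12 DAP (−1.67 ± 0.14, adjusted p = 0.000268), and was also called lower in WT (−1.36). The cell cycle gene cell division cycle201 (Zm00001d000168) had −1.31 and the kinase MHK (Zm00001d000169) −1.35, and neither was called after rescaling, when 1 gene of the list was lower and 2 higher.

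Transcription factors had 7 lower and 1 higher of 22 tested genes (median −0.79, and −0.36 after rescaling, when 1 was lower and 1 higher). The floral homeotic protein APETALA 2 (Zm00001d002075) had 4.10, 4.25 and 4.12 FPKM at 20 DAP, against 10.1, 18.01 and 11.8 FPKM at 12 DAP (−1.61 ± 0.21, adjusted p = 0.00114). bHLH69 (Zm00001d000291) followed at −1.40 but lost its call without replicate 1 or 2 of either stage (adjusted p up to 0.0794), and MYB104 was the one rise. Of protein kinases and phosphatases, 5 of 22 were lower and 0 higher (median −0.63, and 2 lower after rescaling), led by a protein kinase (Zm00001d002026) at −1.52 and a casein kinase II beta subunit (Zm00001d000052) at −1.51, which passed the filter only through the 12 DAP samples.

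Hormone lists were mixed. Auxin had 2 lower and 1 higher of 10 tested (median −0.29), but 1 lower and 4 higher after rescaling (median 0.16). The SAUR gene and auxin response factor 16 (Zm00001d000358), a factor that binds auxin response elements, were lower, the second with 2.22, 2.10 and 2.50 FPKM at 20 DAP, against 5.10, 8.42 and 5.10 FPKM at 12 DAP (−1.37 ± 0.22, adjusted p = 0.00251). The rise was CNX1, an enzyme of molybdenum cofactor synthesis that carries an auxin term. Cytokinin had 1 lower and 1 higher of 4 tested, under both scalings, the response regulator and the glucosyltransferase. Of the list for ethylene, jasmonate, abscisic acid and gibberellin, 4 of 20 were lower and 0 higher (median −0.74, and −0.30 after rescaling, when 0 were lower and 1 was higher). An aldehyde dehydrogenase (Zm00001d000116) had −1.24 and ethylene-responsive factor 4 (Zm00001d000339) −1.11 there, the second −0.87 without replicate 2 of 12 DAP.

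Defence, wounding and browning genes had 6 lower and 0 higher of 23 tested (26.1%, median −0.79). After rescaling 3 were lower, and the median was −0.36. Besides polyphenol oxidase1 and the glucosidase, a RING zinc finger protein (Zm00001d000390), which like the glucosidase passed the filter only through the 12 DAP samples, had −2.002, and the wound-responsive protein Zm00001d002160 had 17.2, 21.4 and 52.4 FPKM at 20 DAP, against 122, 58.9 and 97.1 FPKM at 12 DAP (−1.73 ± 0.45, adjusted p = 0.0166). It lost its call after rescaling (adjusted p = 0.0583) and without replicate 2 of 20 DAP (adjusted p = 0.0563), and it was the one gene of the 59 that was called higher in WT (1.19, adjusted p = 0.00861). In the cell wall list 5 of 13 were lower and 0 higher (38.5%, median −0.64), 4 of them after rescaling, and 2 of the 5, the glucosidase and the methyltransferase, passed the filter only through the 12 DAP samples. A glycosyltransferase (Zm00001d002064) had 10.04, 10.13 and 9.985 FPKM at 20 DAP, against 26.5, 50.9 and 28.2 FPKM at 12 DAP (−1.73 ± 0.24, adjusted p = 0.00156). Redox enzymes had 3 lower and 0 higher of 11 tested, lipoxygenase6, an electron carrier (Zm00001d000305) at −1.32 and an FAD-dependent oxidoreductase (Zm00001d000401) at −1.11.

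Nutrient supply had few tested genes. Of starch and sucrose metabolism 1 of 3 was lower, single-repeat Myb protein1 (Zm00001d000184), a regulator that enters by a sucrose response term and not an enzyme of the pathway, with 8.07, 8.10 and 7.96 FPKM at 20 DAP, against 15.6, 20.6 and 16.6 FPKM at 12 DAP (−1.11 ± 0.13, adjusted p = 0.000812). It was not called after rescaling or without replicate 2 of 12 DAP (−0.99), and after rescaling dull endosperm1 was the one call of the list. Of sugar, amino acid and peptide transport, a list whose pattern does not take in SWEET1a, 1 of 2 was lower, and 1 was higher after rescaling. The lower gene was amino acid permease 7 (Zm00001d001984), with 34.0, 28.7 and 26.9 FPKM at 20 DAP, against 66.3, 83.3 and 67.9 FPKM at 12 DAP (−1.28 ± 0.14, adjusted p = 0.000643). It was also called lower in WT (−1.42). Of other membrane transport 3 of 18 were lower (median −0.45), with the chloride channel CLC-g (Zm00001d002091) at −1.13, and after rescaling 0 were lower and 1 was higher.

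Storage reserves and embryo maturation had 14 listed genes, of which 3 were tested and 1 was lower, a late embryogenesis abundant family protein (Zm00001d000135) with 11.2, 15.4 and 14.2 FPKM at 20 DAP, against 36.2, 28.0 and 35.7 FPKM at 12 DAP (−1.29 ± 0.16, adjusted p = 0.00105). The 5 listed genes with a nutrient reservoir term did not exceed 0.299 FPKM in any *smk7a* sample. The endosperm and transfer layer list had 0 calls among 3 tested genes, with 1 at an unadjusted p under 0.05, dull endosperm1. Over all genes, 216 of the 364 tested had such a limma p.

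Of organelle lists, chloroplast and plastid had 7 lower of 42 (median −0.39), mitochondrion 3 of 17 (−0.39) and vesicle traffic and cytoskeleton 6 of 36 (−0.57), each with 0 higher. After rescaling 2, 0 and 4 of them were lower, and 1 plastid gene was higher. Phosphoglycerate dehydrogenase 3 (Zm00001d002051), an enzyme of serine synthesis, had 36.9, 40.7 and 40.3 FPKM at 20 DAP, against 111, 84.1 and 118 FPKM at 12 DAP (−1.39 ± 0.15, adjusted p = 0.000586). Rubisco Assembly Factor 1 (Zm00001d001812) was at −1.49, the chloroplast NAD transporter 1 (Zm00001d000199) at −1.19 and an OMP85 outer membrane protein (Zm00001d000311) at −1.33. Lipid metabolism had 2 lower of 13, acyl-activating enzyme 5 (Zm00001d001849) at −1.70 and the GDSL lipase CPRD49 (Zm00001d001800) at −1.02, and 1 after rescaling. CPRD49 fell under the fold threshold when any of several single samples was left out (−0.86 at the least).

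Housekeeping lists held few calls. Over all genes, 216 of the 364 tested had an unadjusted limma p under 0.05, and the counts below are to be read against that. Translation and ribosome had 0 of 15 by limma, with 9 at an unadjusted p under 0.05 and fold changes from −0.97 to 0.22 on the log2 scale. RNA processing had 0 of 14, with 3 at an unadjusted p under 0.05 and a range of −0.55 to 0.48. Protein folding and heat shock had 0 of 3, with 2 at an unadjusted p under 0.05, and ubiquitin and protein degradation had 1 lower of 22 (median −0.16), the RING protein, with 1 lower and 1 higher after rescaling. Translation initiation factor 5 (Zm00001d000300) had 101, 97.5 and 105 FPKM at 20 DAP, against 154, 125 and 155 FPKM at 12 DAP (−0.51, adjusted p = 0.00969), and −0.06 after rescaling. The plastid glucose 6-phosphate/phosphate translocator1 (Zm00001d000021), an importer of the precursor of starch, had 83.1, 97.2 and 96.8 FPKM at 20 DAP, against 130, 110 and 140 FPKM at 12 DAP (−0.45, adjusted p = 0.0231), and −0.00 after rescaling. The most abundant listed gene, ubiquitin-conjugating enzyme E2 11 (Zm00001d001913), had 342, 323 and 340 FPKM at 20 DAP, against 278, 302 and 320 FPKM at 12 DAP (0.16, adjusted p = 0.2), and after rescaling 0.60 (adjusted p = 0.00696).

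**Figure D4:**
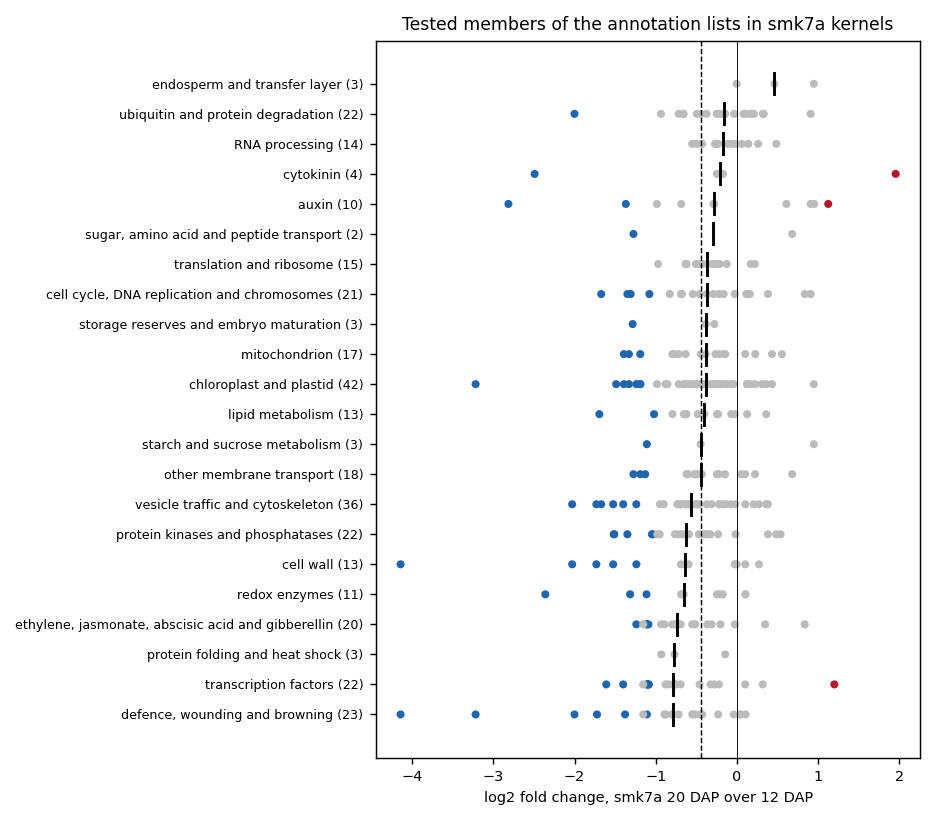
Log2 fold change (20 over 12 DAP) of each tested member of the 22 annotation lists in *smk7a* kernels, with the number tested in brackets, called genes in blue (lower) and red (higher), list medians as black bars and the median of all 364 tested genes, −0.44, as a dashed line. Medians run from −0.79 for defence and transcription factors to 0.46 for the 3 endosperm and transfer layer genes.

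Whether the stages differ in the same way in WT was asked with the WT samples. In WT 61 of 344 tested genes were called (17.7%), 54 lower (15.7%) and 7 higher (2.03%), with a median of −0.55. After rescaling 15 were lower and 17 higher. Of the genes lower in *smk7a*, 18 were also lower in WT, 30.5% of the 59 and 33.3% of the 54. Only 50 of the 59 were tested in WT, so the rest could not be shared. How many WT calls entered the test only through the stage where they are high was not counted, so the shared calls are a description. Of the higher genes 1 was shared, 9.09% of the 11 and 14.3% of the 7, and 3 of the 11 were called lower in WT. Across the 338 genes tested in both genotypes, the changes had a Pearson r of 0.32 and a Spearman rho of 0.24, a description across genes, which are not independent replicates.

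The test of the difference itself, the *smk7a* change minus the WT change over all 12 samples, called 45 of 375 genes (12.0%), 25 positive (6.67%) and 20 negative (5.33%). After rescaling 46 were called (12.3%), 43 of them among the 45. The 45 included 7 of the 11 genes that rose in *smk7a* and 14 of the 59 that fell. Those genes were chosen for their *smk7a* change, which is part of the difference tested, so these shares are no separate result. In 21 of the called genes the *smk7a* estimate was above 0 and the WT estimate below it, and in 14 it was the reverse. The largest positive difference was in Zm00001d000134, an OSJNBa0020I02.16 protein, with 1.06, 0.820 and 1.89 FPKM at 20 DAP and 0.328, 0.2998 and 0 FPKM at 12 DAP in *smk7a*, and 0.377, 0.374 and 0.382 FPKM at 20 DAP and 3.24, 1.23 and 1.74 FPKM at 12 DAP in WT. The difference was 4.40 ± 0.81, at levels near the filter. The gene passed the filter only through *smk7a* at 20 DAP and WT at 12 DAP, the groups where it is high, so this is a description.

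**Figure D5:**
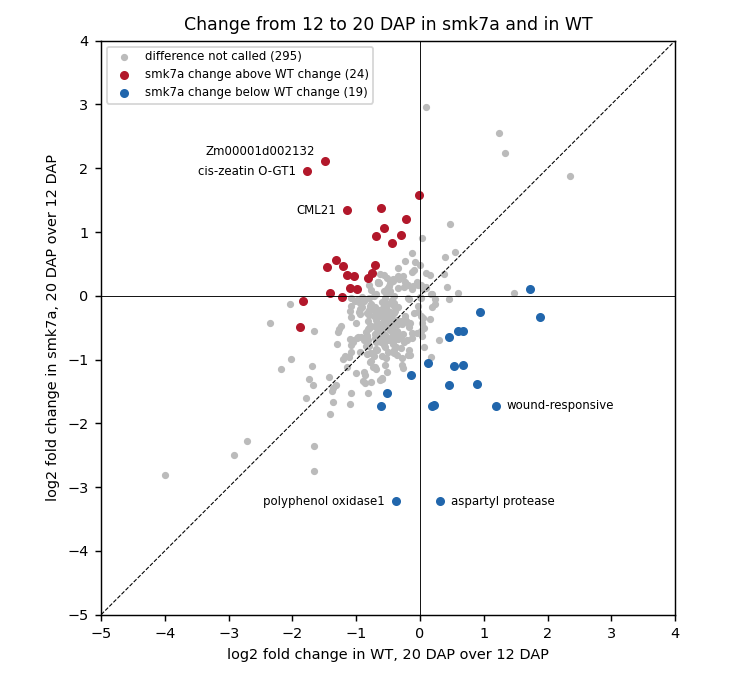
Log2 fold change from 12 to 20 DAP in *smk7a* (vertical) against that in WT (horizontal) for the 338 genes tested in both, with the line of equal change dashed. Of the genes with a called difference, 24 lie above that line (red) and 19 below it (blue), and cis-zeatin O-glucosyltransferase1, CML21 and Zm00001d002132 are above 1 in *smk7a* and below −1 in WT.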

How the data were processed

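RNA of whole kernels was made into stranded mRNA libraries and sequenced, with 3 replicates for each of the 4 groups. The authors trimmed reads (Trimmomatic), used HISAT2 to map them to B73 RefGen_V4, dropped reads with mismatches, and deposited FPKM per gene. The program and the strand setting behind the FPKM are not given in the sources used here, and the authors' own tests used DESeq2. The copy of the table analysed here runs in identifier order and ends after 720 genes, so it covers part of the genome. Of these, 555 have a description, 490 a GO term and 62 a pathway. It had 0 unused value columns, and 0 of the 720 identifiers matched the reference gene table, so names are the deposited descriptions and neither coordinates nor sequences are given. Ratios between low FPKM values (under 0.3) were within 0.1 of a whole number in 56.0% of 141 cases, among ratios of 1.5 to 4.5. The share to be met without whole reads was not computed, so this does not settle whether depth can be recovered from the table.

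FPKM were used as deposited. A gene entered a test when at least 3 of the comparison's samples exceeded 1 FPKM, on log2(FPKM + 0.1) with limma 3.58.1 in R 4.3.3 (lmFit, eBayes with trend), and p-values were adjusted by Benjamini-Hochberg over all genes tested. A gene was called with an adjusted p under 0.05 and a fold change above 2. Fold changes on this scale understate those of low genes. WT was fitted alike, and the interaction was fitted over all 12 samples. Alternatives were other pseudocounts, filters and scalings, a test against a fold change of 1.5, sample weights, the replicate block and each sample left out. Errors are SE of limma. Named genes were the 10 largest rises and 10 largest falls without overlap, genes that the study names and 2 endosperm genes, in each list up to 3 called members with the largest change and the most abundant one, the 6 largest interactions and the 5 most abundant genes. Not all of these are described. The members, lists and rules were chosen with earlier results of these data known. The fit was tested on simulated data of 364 genes, all shifted by −0.5 log2 units. Of these, 60 were also changed by 2 log2 units, with as many rises as falls. The fit recovered 97.4% of the changed genes, and 9.48% of its calls were false, against 96.0% and 1.17% with the rescaled values. The common shift counted as no change there, so the simulation cannot say which scaling suits the kernels. Python 3.11.15 with pandas 2.3.3, scipy 1.17.1, numpy 2.4.6 and matplotlib 3.10.9 made the tables and plots.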

Additional observations from a re-analysis of the deposited data

Results flagged for a closer look

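The change between the stages differed between *smk7a* and WT, by limma's interaction test over all 12 samples, in 15 of the genes named here. The *smk7a* change exceeded the WT change (log2) by 4.40 for Zm00001d000134, 3.72 for cis-zeatin O-glucosyltransferase1, 3.60 for Zm00001d002132, 2.48 for CML21, 1.997 for O-succinylhomoserine sulfhydrylase, 1.66 for BETL4, 1.64 for dull endosperm1, 1.63 for the UBX domain protein Zm00001d001895, 1.59 for the glycoprotein Zm00001d001894 and 1.41 for MYB104. It was below the WT change for the aspartyl protease Zm00001d001771 (−3.54), the wound-responsive protein Zm00001d002160 (−2.92), polyphenol oxidase1 (−2.84), the pyruvate kinase Zm00001d001831 (−1.94) and the glycosyltransferase Zm00001d002064 (−1.13, adjusted p = 0.0477). Zm00001d000134 passed the filter only through *smk7a* at 20 DAP and WT at 12 DAP, where it is high, so its difference is a description. With each of the 12 samples left out in turn, 12 of these 15 differences stayed called. The others were BETL4, whose adjusted p reached 0.0554 without replicate 2 or 3 of *smk7a* at 20 DAP or replicate 2 of WT at 20 DAP, Zm00001d001894 (lost in 5 of the 12 fits, adjusted p up to 0.0671) and Zm00001d002064 (lost in 8, adjusted p up to 0.104).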

How the results depend on the processing

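The table gives no depth for the FPKM, and its copy covers 720 genes, so shares hold for these genes only. In *smk7a* the 70 calls (11 higher, 59 lower) became 43 (6, 37) with a filter of 5 FPKM, 43 (18, 25) by median of ratios, 45 (18, 27) by total sum, 46 (5 higher) when tested against a fold change of 1.5, and 192 (20, 172) without a fold threshold. The median change was −0.38 with a pseudocount of 1, −0.0065 by median of ratios and −0.042 by total sum. Leaving out single samples gave 54 to 68 calls, 7 to 11 of them higher (7 without replicate 2 of 20 DAP) and 43 to 61 lower, and medians of −0.46 to −0.40. The 61 WT calls became 33 (pseudocount of 1), 29 (filter of 5 FPKM), 32 (median of ratios), 33 (total sum), 23 (fold of 1.5) and 210 (no fold threshold), and the 45 interaction calls 17 (fold of 1.5) and 79 (no fold threshold). Endosperm specific protein1 turned to 0.44 by median of ratios, 0.40 by total sum and 0.19 with sample weights, and ran from −0.10 to 0.16 with samples left out. SWEET1a turned to 0.22 and 0.18 in the rescalings, and Zm00001d001819 to 0.024 by median of ratios. The cause of these shifts was not tested, other than that stricter filters tested fewer genes. Of 1280 values of single genes under alternatives, 1170 kept their direction and side of the threshold, 98 lost and 4 gained the call, and 8 changed sign (those of endosperm specific protein1, SWEET1a and Zm00001d001819 above). The rescalings mattered most. Of 116 fold changes under the 2 rescalings, 73 kept direction and side of the threshold, 36 lost and 2 gained the call, and 5 changed sign. Outside the rescalings 791 of 836 fold changes kept both.

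With the replicate number as a block 70 genes were called, 69 of them the same. Deviations of same-numbered *smk7a* samples of 20 and 12 DAP correlated at −0.05, 0.16 and 0.08. Those of differently numbered samples ran from −0.23 to 0.14. With only 3 samples per stage, whose deviations are not independent, these values cannot decide whether the numbers pair the samples. Whether *smk7a* and WT samples of the same stage and number are paired by ear was not tested, and the main interaction fit took no such pairing into account. The block with the median of ratios, added after seeing the data, gave 45 calls (18 higher, 27 lower) in *smk7a* and 35 in WT.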

Other observations

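Some called genes belong to none of the annotation lists and were chosen here after their values were seen. Pyruvate kinase (Zm00001d001831), the last enzyme of glycolysis, had 4.74, 6.44 and 5.87 FPKM in *smk7a* at 20 DAP, against 20.3, 16.5 and 19.9 FPKM at 12 DAP (log2 fold change −1.72 ± 0.15, limma adjusted p = 0.000339). In WT it had 7.80, 7.31 and 10.03 FPKM at 20 DAP and 6.81, 7.36 and 7.13 FPKM at 12 DAP, so the 12 DAP *smk7a* samples were the high ones. Maize insect resistance3 (Zm00001d002065), a cysteine protease, had 38.7, 49.1 and 47.5 FPKM in *smk7a* at 20 DAP, against 105, 97.1 and 111 FPKM at 12 DAP (−1.21 ± 0.12, adjusted p = 0.000586), and was not called after rescaling by the median of ratios (−0.77). The gene that completes the 11 rises, the UBX domain protein Zm00001d001895, had 39.3, 30.4 and 30.0 FPKM in *smk7a* at 20 DAP, against 14.6, 15.1 and 17.6 FPKM at 12 DAP (1.06 ± 0.14, adjusted p = 0.00126), while WT had 11.4, 10.3 and 11.2 FPKM at 20 DAP and 16.9, 16.1 and 15.8 FPKM at 12 DAP.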
